A study of Mus musculus with 1479 samples.

Results

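The genes described here encode the subunits of the 5 complexes of oxidative phosphorylation, together with assembly factors of complexes I and II whose symbols carry the same stems. They were chosen by symbol alone: protein-coding rows beginning with mt-Nd, mt-Co, mt-Cytb, mt-Atp, Ndufa, Ndufb, Ndufc, Ndufs, Ndufv, Cox followed by a number from 4 to 8, Atp5, Uqcr or Sdha to Sdhd, without pseudogene symbols and without Cox4i2 and Ndufa4l2. Of the 46517 gene rows, the rule held 13 encoded on the mitochondrial chromosome and 95 in the nucleus. Of the nuclear genes, 83 encode subunits and 12 assembly factors (8 Ndufaf and 4 Sdhaf genes). By complex, the subunits numbered 43 for complex I (7 of them mitochondrial), 4 for complex II, 9 for complex III (1 mitochondrial), 21 for complex IV (3 mitochondrial) and 19 for complex V (2 mitochondrial), with Ndufa4 placed in complex IV.

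Counts came from 1479 single cells of the urinary bladder of male mice of 10 to 20 weeks, sequenced with Smart-seq2, an oligo(dT)-primed full-length method without molecular identifiers. The cells came from 5 mouse lines on a C57Bl6/J background. C57BL6 mice carried no reporter (12.8% of the cells). In Acta2GFP (8.72%), Cspg4dsRED (13.7%) and PdgfrbGFP (54.8%) a transgene places a fluorescent protein under the named promoter, and in PdgfraGFP (9.94%) a nuclear GFP is knocked into the Pdgfra locus. Cells had been sorted for a reporter or for PDGFR antibody staining, without CD31, and the Acta2GFP tissue had also been digested with elastase. The sort differed with the line, so line and sort cannot be told apart. PdgfrbGFP cells lay on 3 plates and Cspg4dsRED cells on 2, plates 515s and 689s held 2 lines each, and C57BL6 had 1 plate to itself, so for that line the plate cannot be told apart either. The labels gave each cell a cluster from 1 to 11 and named no animal. The clusters had been made from these same counts, so every p-value below tells how far a difference recurred over lines, not whether cell types differ.

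Cluster 10 (8.45% of the cells), which the study named mural cells, carried the mural markers: the 9 listed markers (among them Acta2, Myh11, Rgs5 and Notch3) summed to between 8133 and 12820 reads per 500000 in its lines, against 94.2 to 176.9 in the lines of the other clusters, pooled (435.03 to 752.5 in cluster 5 alone and 45.3 to 408.6 in cluster 4). The remaining 1354 cells are called the fibroblast clusters here, since their 6 fibroblast markers, pooled, summed to between 10944 and 16069 against 456.1 to 1949 in cluster 10. In cluster 4 alone the sum ran from 6898 to 8991, below the pooled range and above cluster 10. Of the 4 endothelial markers, the sum ran from 9.89 to 50.3 in cluster 10 and from 9.14 to 21.6 in the fibroblast clusters, and that of the 4 immune markers from 0.551 to 5.26 and from 0.357 to 6.21, with Cd3e alone of these at 0 in both. Total reads per cell ran from 50276 to 1446059 with a median of 214893. Cluster 10 cells were shallower: their median was 128369 endogenous reads and 3188 detected genes, against 222572 and 4980 in the fibroblast clusters, and ERCC spike-in RNA, added in equal amount to each well, took a median 1.71% against 1.14% of reads.

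Oxidative phosphorylation passes electrons from NADH, through complex I, and from succinate, through complex II, to ubiquinone, then through complex III and cytochrome c to complex IV, which reduces oxygen. Complexes I, III and IV pump protons out of the mitochondrial matrix, and complex V, the ATP synthase, lets them back in to make ATP. The mitochondrial chromosome encodes a small set of hydrophobic core subunits, all other subunits are made from nuclear genes and imported, and complex II is entirely nuclear. Smooth muscle and pericytes, which contract, and fibroblasts, which secrete matrix, both use this machinery, and some complex IV subunits exist as tissue-restricted paralogs.

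Sequence bears first on what could be counted for the mitochondrial genes, because the mouse nuclear genome holds copies of them. The longest set lies on chromosome 1 between positions 24611535 and 24616197. The first bases of mt-Co2, a copper-binding core subunit of complex IV, and of its copy Gm28661 are shown because the transcripts did not differ over the 681 bases compared, and a stretch of mt-Co1, the catalytic subunit, with its copy Gm29216 because it holds the 6 of 492 bases that differ, marked by capitals. All are read 5′ to 3′ from GENCODE M21 transcripts on GRCm38; the mitochondrial genes lie on the plus strand and the copies on the minus strand.
mt-Co2, chrM:7013-7072: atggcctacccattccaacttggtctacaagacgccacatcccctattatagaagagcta
Gm28661, chr1:24615506-24615565: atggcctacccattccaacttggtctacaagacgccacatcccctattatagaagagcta
mt-Co1, chrM:6381-6440: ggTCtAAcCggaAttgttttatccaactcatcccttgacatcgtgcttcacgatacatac
Gm29216, chr1:24616138-24616197: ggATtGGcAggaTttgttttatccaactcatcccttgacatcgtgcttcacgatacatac
Within 50-base windows, all of mt-Co2 (100%), 99.9% of mt-Co3, 99.5% of mt-Atp6, 98.8% of mt-Nd4l and 97.99% of mt-Nd3 also occurred in another gene, as did 62.2% of mt-Nd4 and 51.1% of mt-Co1. For mt-Cytb, mt-Nd1, mt-Nd6 and mt-Atp8 the share was 0%, and it was 8.19% for mt-Nd2 and 7.61% for mt-Nd5. Windows were searched in annotated transcripts only, so a copy elsewhere in the genome would not be seen. Of the 95 nuclear members, 51 shared no window and 0 shared 50% or more.

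The promoters of the nuclear members were compared for 3 motifs associated with genes of this pathway: NRF1 (GCGCATGCG), the ETS motif bound by GABP (CCGGAAG) and YY1 (GATGGCGG). Each was searched on both strands, and none of these letter strings contains another; a match on the other strand is printed as its reverse complement. RefSeq promoters on GRCm38.p6, from 250 bases before to 50 bases after the start, were matched for 78 of the 95 nuclear members. NRF1 occurred in 10 of 78 (12.8%) against 1.78% of the 26947 other promoters, ETS in 20 (25.6%) against 9.07%, YY1 in 6 (7.69%) against 1.72%, and any of the 3 in 31 (39.7%) against 11.8%. All 6 YY1 matches lay in promoters of complex I genes, and 5 of the 7 complex II promoters, assembly factors included, held ETS. The members' promoters also had a higher median GC content, 58.5% against 52.7%, and a match is a description of the letters, not a site. Of the 5 promoters printed with motifs in capitals, Cox6a1 holds NRF1 and ETS, Uqcrc1 NRF1, Cox8a ETS at 2 places and Ndufs7 YY1; that of Cox6b2 is shown beside them because this paralog went the other way in cluster 10.
Cox6a1, chr5:115348909-115349208, minus strand: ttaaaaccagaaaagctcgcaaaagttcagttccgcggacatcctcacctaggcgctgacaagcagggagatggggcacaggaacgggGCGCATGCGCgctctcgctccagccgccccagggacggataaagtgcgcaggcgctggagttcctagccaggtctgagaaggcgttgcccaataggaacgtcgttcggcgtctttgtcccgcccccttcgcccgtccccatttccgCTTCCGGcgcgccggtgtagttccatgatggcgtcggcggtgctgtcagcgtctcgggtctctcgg
Uqcrc1, chr9:108936398-108936697, plus strand: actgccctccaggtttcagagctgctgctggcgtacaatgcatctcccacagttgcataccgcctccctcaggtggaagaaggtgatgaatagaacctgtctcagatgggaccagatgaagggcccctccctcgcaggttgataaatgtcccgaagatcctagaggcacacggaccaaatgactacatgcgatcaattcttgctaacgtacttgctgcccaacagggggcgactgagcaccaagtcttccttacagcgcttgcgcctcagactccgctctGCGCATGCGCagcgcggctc
Cox8a, chr19:7217567-7217866, minus strand: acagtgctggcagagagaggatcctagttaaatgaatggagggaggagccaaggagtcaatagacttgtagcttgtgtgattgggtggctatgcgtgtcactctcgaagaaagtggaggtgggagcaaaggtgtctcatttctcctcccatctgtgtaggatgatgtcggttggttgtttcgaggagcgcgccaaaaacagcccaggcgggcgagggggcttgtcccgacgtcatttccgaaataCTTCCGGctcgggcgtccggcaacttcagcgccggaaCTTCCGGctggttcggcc
Ndufs7, chr10:80249199-80249498, plus strand: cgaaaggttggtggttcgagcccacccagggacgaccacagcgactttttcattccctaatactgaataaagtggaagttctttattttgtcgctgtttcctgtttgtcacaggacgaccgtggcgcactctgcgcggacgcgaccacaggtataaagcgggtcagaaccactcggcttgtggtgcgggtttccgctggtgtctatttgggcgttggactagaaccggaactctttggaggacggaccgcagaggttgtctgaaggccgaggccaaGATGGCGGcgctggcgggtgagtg
Cox6b2, chr7:4753045-4753344, minus strand: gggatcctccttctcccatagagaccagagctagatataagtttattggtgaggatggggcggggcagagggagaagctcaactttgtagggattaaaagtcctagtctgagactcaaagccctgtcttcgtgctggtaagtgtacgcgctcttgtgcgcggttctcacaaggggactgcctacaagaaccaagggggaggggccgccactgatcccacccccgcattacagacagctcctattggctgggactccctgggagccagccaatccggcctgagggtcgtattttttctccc

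The members took 6859125 reads over all cells, which was 1.80% of the endogenous reads, and the 13 mitochondrial members held 38.2% of these. The mitochondrial reads were spread unevenly over the genes. mt-Cytb, the cytochrome b of complex III, held 29.1% of them, mt-Nd1, a membrane subunit of complex I, 19.7%, mt-Co1 19.6%, mt-Nd5 10.9%, mt-Nd4 7.93%, mt-Atp8 4.77%, mt-Nd2 4.59%, mt-Nd6 2.00% and mt-Atp6 1.32%. The 4 genes mt-Co2, mt-Co3, mt-Nd3 and mt-Nd4l held 1912 reads together (0.00183% of the mitochondrial members' reads for mt-Co2), and each of these was among the 5 whose windows were shared almost throughout, while mt-Atp6, also shared, kept more reads than they did. How reads with several matching places were counted is not given in the sources used here and was not tested, so levels of these 5 genes, and in part of mt-Co1 and mt-Nd4, cannot be read as transcript levels. A read was seen in at least 50% of the cells for 87 members. There were 3 without a read in any cell: Cox6a2 and Cox8c, muscle and testis paralogs of complex IV subunits, and Cox7b2.

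Counts of the most abundant mitochondrial genes grew less than in proportion to depth. Over all cells, mt-Cytb had a median of 0.399 reads per exon base, mt-Atp8 0.363, mt-Nd1 0.288 and mt-Co1 0.210. In fibroblast cells with a read of the gene, the slope of log2 reads on log2 depth, which is 1 where counts follow depth, had a median of 0.75 over the 11 mitochondrial members that could be fitted (7 of them under 0.8, among them mt-Co3 and mt-Nd3 with few reads) and of 1.02 over 84 nuclear members (13 under 0.8). The slopes differed between the 4 groups of plate and line fitted. For mt-Cytb they ran from 0.67 to 0.84 in 3 groups, for mt-Atp8 from 0.70 to 0.83, for mt-Nd1 from 0.78 to 0.86 and for mt-Co1 from 0.68 to 0.94. Plate 881s was the lowest for each, at 0.25, 0.21, 0.35 and 0.52. The study names a removal of doublets with samtools before counting; whether this took out duplicate reads is not stated, and its part in these slopes was not tested. Because cluster 10 cells were shallower, comparisons of the mitochondrial genes were also made in cells of 100000 to 300000 reads.

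**Figure D1:**
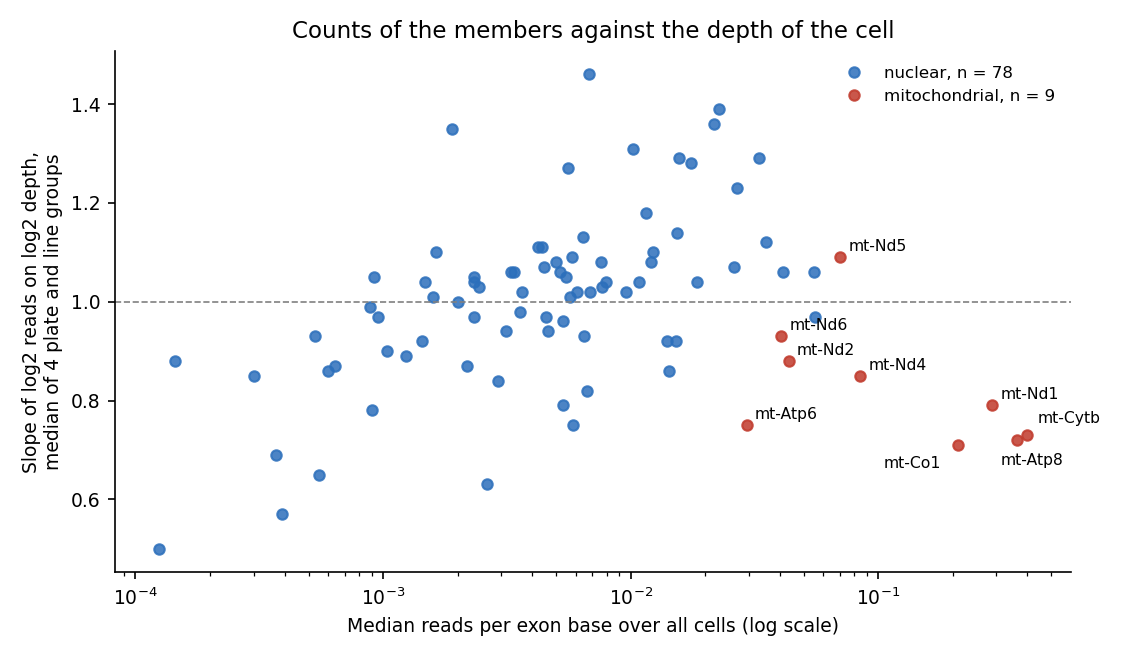
Each point is a member with a median read count above 0 (78 nuclear, 9 mitochondrial): the horizontal log axis gives its median reads per exon base over all cells, and the vertical axis the median slope of its log2 reads on log2 depth among the fibroblast cells of the 4 largest groups of plate and line. The nuclear members scatter around 1. The 4 mitochondrial members with the highest reads per base lie between 0.71 and 0.79, and mt-Atp6, with the lowest of the 9, lies there too at 0.75.

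Levels were compared between genes per kilobase of the principal transcript (APPRIS, the longest where several are principal), and 4 mitochondrial genes stood highest. In the fibroblast clusters mt-Atp8, a small stator subunit of the ATP synthase, reached 943.4 reads per 500000 endogenous reads and kilobase, mt-Cytb 928.7, mt-Nd1 666.7 and mt-Co1 508.03. Of the nuclear members, the highest were Cox4i1, the ubiquitous form of subunit 4 of complex IV (267.5), Atp5b, the catalytic beta subunit of the ATP synthase (170.9), and Cox8a, the ubiquitous form of subunit 8 (157.03). Divided by the length of all exons of the gene instead, Cox8a came first (139.5), then Cox4i1 (132.02) and Cox6a1 (112.9), and Atp5b stood at 77.3. The lowest were Cox6a2, Cox7b2 and Cox8c, listed at 0. The median nuclear subunit stood at 41.8 for complex I, 33.1 for complex II, 62.2 for complex III, 45.4 for complex IV and 69.2 for complex V. In cluster 10 the same medians were 70.2, 54.2, 110.6, 80.3 and 92.98, so complexes II and I stood lowest in both on this length. The order of the complexes did not hold with the length of all exons, where the medians were 22.6, 27.3, 30.1, 21.6 and 26.3 in the fibroblast clusters and 37.8, 45.4, 50.7, 39.5 and 32.4 in cluster 10. The assembly factors were seen in fewer cells than the subunits: the median member was detected in 28.4% of cells for complex I factors and 30.7% for complex II factors, against 71.8% to 84.4% for the nuclear subunits of the 5 complexes.

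The mural cluster gave a larger share of its reads to these genes than the fibroblast clusters did. The 13 mitochondrial members took 1.19% ± 0.222 (SD, n = 4 lines) of the endogenous reads in cluster 10 and 0.713% ± 0.0665 (n = 5 lines) in the fibroblast clusters, and the ranges over lines, 0.944 to 1.48% and 0.643 to 0.822%, did not overlap. The nuclear subunits took 1.49% ± 0.295 and 0.842% ± 0.198. In cells of 100000 to 300000 reads the shares were 1.16% and 0.708% for the mitochondrial members and 1.47% and 0.802% for the nuclear subunits, so the order was the same within this range of depth. Each complex showed the same order: complex I took 0.486% in cluster 10 and 0.278% in the fibroblast clusters, complex II 0.106% and 0.0545%, complex III 0.156% and 0.0790%, complex IV 0.261% and 0.157%, and complex V 0.476% and 0.273%. The mitochondrial ribosomal RNAs, which are no members, took 0.842% and 0.805%, and the cytosolic ribosomal proteins 1.90% and 2.09%.

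Within the 7 groups of plate and line that held cluster 10 cells, the ratio of the cluster 10 share to the fibroblast share was above 1 in 7 of 7 for the mitochondrial members (median 1.60, 1.31 to 2.30) and for the nuclear subunits (median 1.83, 1.40 to 2.52). It was above 1 in 7 of 7 groups for the nuclear subunits of each complex too: the median was 1.69 for complex I, 1.96 for complexes II and III, 1.64 for complex IV and 1.99 for complex V. The assembly factors gave a median of 1.38, with 8.67 in the Cspg4dsRED group of plate 689s, where 16 cluster 10 cells stood against 10 fibroblast cells; the same group gave the highest ratio of the nuclear subunits, 2.52. Of genes outside the rule, the mitochondrial ribosomal RNAs were higher in 6 of 7 groups (median 1.19) and the cytosolic ribosomal proteins in 1 of 7 (median 0.835).

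**Figure D2:**
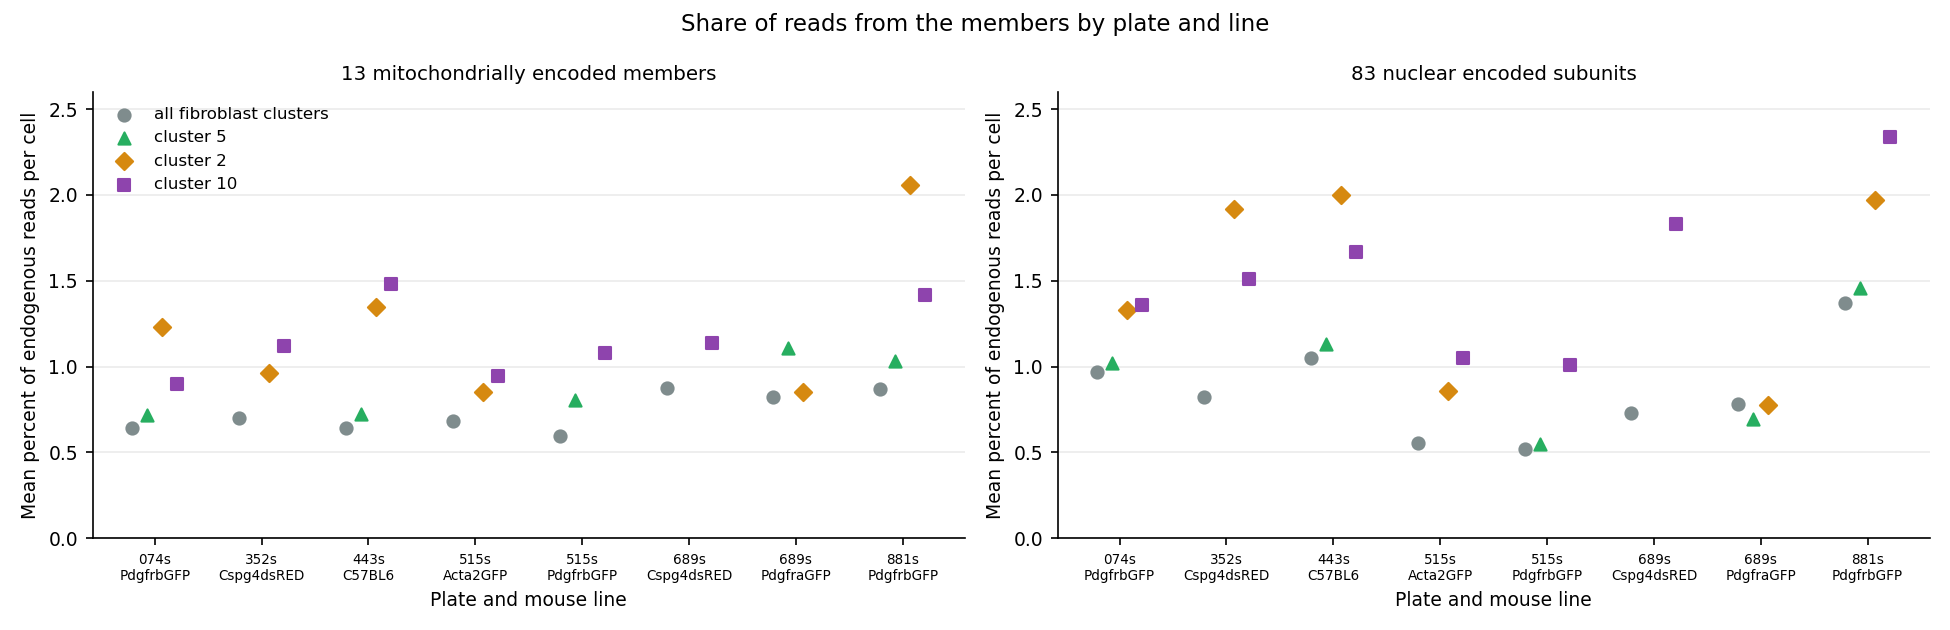
Points give the mean percent of endogenous reads per cell in each group of plate and line, for the mitochondrial members on the left and the nuclear subunits on the right, in cluster 10, cluster 5, cluster 2 and all fibroblast clusters. Cluster 10 lies above the fibroblast clusters in all 7 groups that hold it, while the height of both moves between plates, most for the nuclear subunits.

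The share depends on the total it is taken of, and cluster 10 cells gave fewer endogenous reads per ERCC read in most groups. From reads summed over the cells of a group, the total of cluster 10 stood at a median 0.737 of the fibroblast value (0.309 to 0.766, higher in 0 of 7 groups), and the ribosomal proteins at 0.559 (0 of 7). As a mean over cells the total stood at 0.643 and was higher in 1 of 7, at 1.16 in PdgfrbGFP cells of plate 515s. On the scale of sums the mitochondrial members stood at 1.06 (0.791 to 1.38, higher in 6 of 7) and the nuclear subunits at 1.23 (0.498 to 2.01, higher in 5 of 7), with complex medians of 1.11, 1.39, 1.27, 1.07 and 1.43 for I to V. As means over cells the mitochondrial members stood at 1.06 (6 of 7) and the nuclear subunits at 1.29 (5 of 7), so on both scales the groups fell on both sides of 1. Less RNA in a cell and less complete capture of it cannot be told apart here.

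Gene by gene, counts were summed per line and class. Cluster 10 was then compared with the fibroblast clusters in the 4 lines with at least 3 cells of each, by edgeR's quasi-likelihood test blocked by line. A call needed an adjusted p (Benjamini-Hochberg, over all 16092 genes tested) under 0.05. Of the members, 12 mitochondrial and 90 nuclear ones were tested. Cox6a2, Cox7a1, Cox7b2, Cox8b, Cox8c and mt-Co2 fell to the filter on low counts. The test called 1 member higher, mt-Cytb, and 0 lower, where 2.27% of all tested genes were called higher and 4.11% lower; 7 members (6.86%) had an unadjusted p under 0.05, 6 of them higher (5.88%), against 22.1% and 4.66% of all tested genes. DESeq2 did not call mt-Cytb; it called Ndufa12, an accessory subunit of complex I, higher and Cox6b2 and Sdhaf3 lower, where it called 5.55% of its genes higher and 14.2% lower. The members' median log2 fold change was 0.60, while that of all tested genes was -0.93. With scaling to ERCC reads these medians were -0.07 and -1.59, so the sign of the members' median turned on the scaling. Among genes with a mean of at least 10 reads per 500000, the 91 members had a median of 0.61 and the 7560 genes one of -0.82. The members were higher in every line in 40.2% of cases (10 of the 12 mitochondrial and 31 of the 90 nuclear members), against 6.56% of all tested genes, and lower in every line in 1 case, Cox6b2, against 27.2%. Median log2 fold changes were 0.78 for the mitochondrial members and, for nuclear subunits, 0.51 (complex I), 0.33 (II), 0.82 (III), 0.81 (IV) and 0.57 (V), with 0.02 for the assembly factors and -0.25 for the ribosomal proteins.

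**Figure D3:**
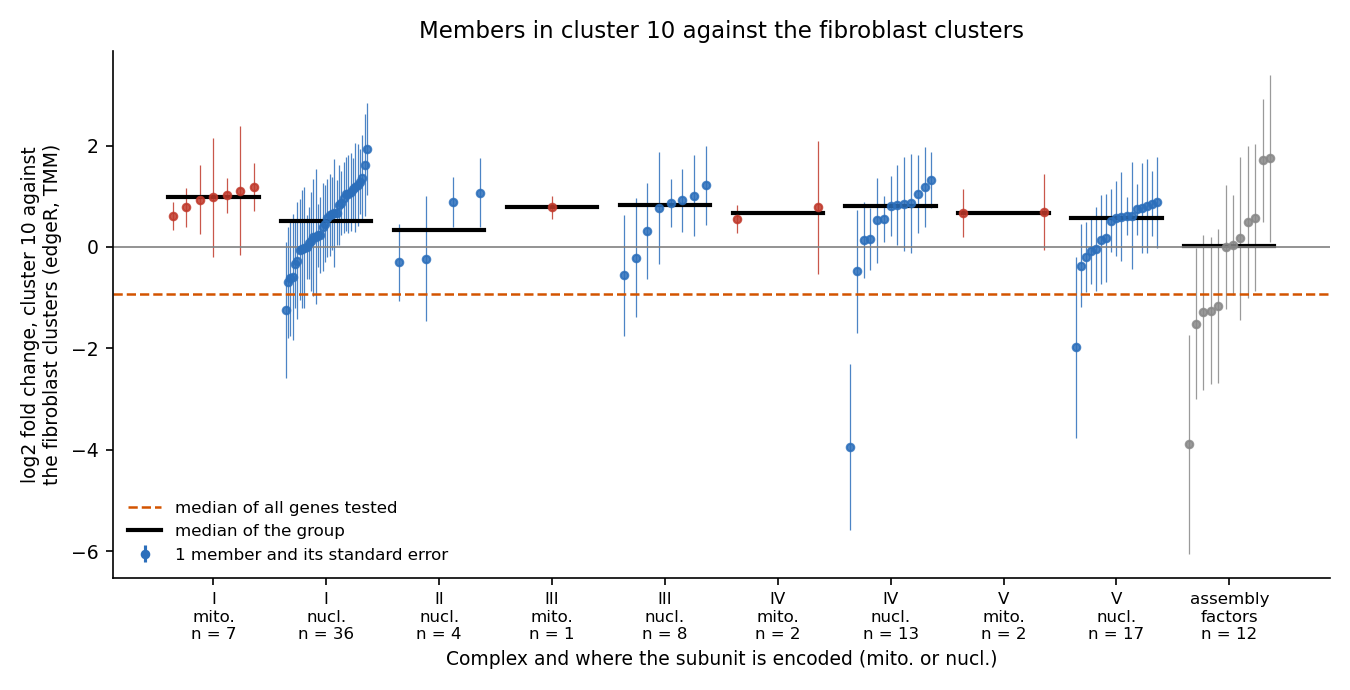
Each point is the edgeR log2 fold change of 1 member in cluster 10 against the fibroblast clusters, with its standard error, in columns by complex and by where the subunit is encoded; black bars are medians and the dashed line the median of all genes tested (-0.93). All 12 mitochondrial members lie above 0 (with scaling to ERCC reads mt-Nd1, mt-Co1, mt-Atp6 and mt-Atp8 fall below it), the nuclear subunits spread on both sides with medians from 0.33 to 0.82, and the assembly factors centre near 0.

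mt-Cytb, the only mitochondrial subunit of complex III, had 1583 reads per 500000 in the Acta2GFP cells of cluster 10, 2137 in C57BL6, 1718 in Cspg4dsRED and 1730 in PdgfrbGFP. In the fibroblast clusters it had 1071, 898, 1014 and 1072 in these lines and 1258 in PdgfraGFP. All 4 mural values lay above all 5 fibroblast values, and the gene rose, with a log2 fold change of 0.78, in 4 of 4 lines (SE 0.23, adjusted p by edgeR = 0.0488). The call was near the threshold and did not hold in several settings: the adjusted p was 0.132 without C57BL6, 0.129 without Cspg4dsRED and 0.138 without PdgfrbGFP, 0.161 in the depth window, 0.0684 without the line block, 0.0917 without the low-count filter and 0.325 by DESeq2. Scaled to ERCC reads, the difference was 0.06 (adjusted p = 0.909).

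The other 11 mitochondrial subunits tested shared the direction of mt-Cytb without a call (mt-Co2 was not tested, having 2 reads over cluster 10 and 46 over all fibroblasts), except that with scaling to ERCC reads mt-Nd1, mt-Co1, mt-Atp6 and mt-Atp8 gave -0.11, -0.17, -0.03 and -0.05. Among complex I subunits, mt-Nd5, part of the proton-pumping membrane arm, had 464.7, 928.3, 524.9 and 704.3 reads per 500000 in the Acta2GFP, C57BL6, Cspg4dsRED and PdgfrbGFP cells of cluster 10, against 265.4 to 455.004 over the 5 lines of the fibroblast clusters (log2 fold change 1.02, adjusted p = 0.0751). mt-Nd1 ran from 749.7 to 1318 in cluster 10 and from 577.8 to 709.2 in the fibroblast clusters (0.61, adjusted p = 0.208). mt-Nd4 and mt-Nd6 also did not overlap between the classes, with 407.1 to 601.1 against 235.7 to 314.3 and 73.3 to 159.8 against 44.96 to 69.3, whereas mt-Nd2 did (165.04 to 647.5 against 104.5 to 202.8). The share of all tested genes without such overlap is not given, so lack of overlap, for any member here, is a description only. In complex IV, mt-Co1 stood at 981.8 to 1283 against 637.2 to 917.7 (0.55, adjusted p = 0.242), and in complex V mt-Atp8 at 228.8 to 395.1 against 162.3 to 247.3, which overlapped. With sums per plate and line, in place of sums per line, mt-Nd1, mt-Nd2, mt-Nd4, mt-Nd5 and mt-Co1 were called besides mt-Cytb. In that setting 9 of all members tested (8.82%) were called, against 17.2% of all tested genes. Such sums treat plates of one line as separate.

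In complex I, edgeR called 0 of 36 nuclear subunits, and 1 (Ndufa12, 1.94) had an unadjusted p under 0.05. Ndufb8, an accessory subunit of the membrane arm, had 45.4, 367.5, 97.9 and 118.5 reads per 500000 in the 4 lines of cluster 10 and 22.6 to 62.4 in the fibroblast clusters (log2 fold change 1.29, adjusted p = 0.249). Ndufs1 and Ndufv1, which carry iron-sulfur clusters and the NADH site, were above the fibroblast value in 3 of 4 lines and far below it in C57BL6, where the 3 cells gave 0.873 and 3.62 reads. Their fitted values were 0.19 (SE 1.16) and -0.34 (SE 0.86), and 1.05 and 0.46 without C57BL6, so neither direction could be told from the spread between lines.

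In complex II, none of the 4 subunits was called. Sdha, the flavoprotein, had 251.5, 304.7, 227.5 and 209.6 reads per 500000 in cluster 10 and 61.8 to 156.5 in the fibroblast clusters, without overlap (0.89, adjusted p = 0.319). Sdhc, a membrane anchor, had 141.3, 76.5, 245.3 and 228.8 against 40.2 to 84.9; without C57BL6, whose value was the low one, it was called (1.62, adjusted p = 0.0238). Sdhd, the other anchor, had 73.5, 0, 37.3 and 74.1 in the order Acta2GFP, C57BL6, Cspg4dsRED and PdgfrbGFP, against 24.7, 36.8, 36.3 and 50.7 in the fibroblasts of the same lines. It was thus higher in 3 of 4 lines, and its fitted value of -0.23 (SE 1.23) was 0.70 without C57BL6, whose 3 cells held no read of it. Sdhb, the iron-sulfur subunit, gave -0.30 (SE 0.76), and 0.02 without C57BL6.

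In complex III, the core subunit Uqcrc1 had 283.5, 244.1, 284.5 and 244.3 reads per 500000 in cluster 10 and 83.01 to 194.1 in the fibroblast clusters (0.87, adjusted p = 0.299). The classes did not overlap for Uqcrc1. Uqcrfs1, the Rieske iron-sulfur protein, had 40.3, 0, 37.96 and 65.5 against 20.5 to 50.9, and with no read in the 3 C57BL6 cells its fitted value was -0.56 (SE 1.19).

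In complex V, the catalytic pair Atp5a1 and Atp5b were the most counted nuclear members. Atp5b had 1046, 1157 and 772.8 reads per 500000 in the Acta2GFP, Cspg4dsRED and PdgfrbGFP cells of cluster 10 and 42.2 in C57BL6, against 268.2 to 413.2 in the fibroblast clusters. The 3 C57BL6 cells thus lay below every fibroblast line and the other lines above, and the fitted log2 fold change went from 0.52 (adjusted p = 0.723) over 4 lines to 1.34 (adjusted p = 0.0164) without C57BL6. Atp5a1 stood at 414.4 to 740.8 against 192.3 to 322.2, without overlap (0.61, adjusted p = 0.394). The 3 genes of the membrane ring subunit c, which encode the same mature protein, gave 0.17 for Atp5g1, 0.88 for Atp5g2 and 0.60 for Atp5g3, with standard errors of 0.87, 0.90 and 0.88, and Atp5c1, the central stalk, -0.19 (SE 0.69), which was 0.33 without C57BL6.

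Complex IV has the most paralogs, and the forms of one subunit are given side by side. Forms were not tested against each other. Cox8a had 118.2, 282.9, 184.9 and 245.8 reads per 500000 in the lines of cluster 10 and 43.6 to 119.1 in the fibroblast clusters (1.32, adjusted p = 0.151); it was called without C57BL6 (1.39, adjusted p = 0.0374) and in sums per plate and line (1.22, adjusted p = 0.0237). Cox6b1, the ubiquitous form of subunit 6b, had 36.8 to 117.3 against 27.9 to 94.7 (0.14, adjusted p = 0.951). Its paralog Cox6b2, known as the testis form, was counted in fibroblasts at 10.6, 41.3, 23.7, 25.9 and 29.3 in the order Acta2GFP, C57BL6, Cspg4dsRED, PdgfraGFP and PdgfrbGFP, and in cluster 10 at 0, 0, 8.36 and 5.32, below every fibroblast line. This difference of -3.94 (adjusted p = 0.153) was not called by edgeR over lines, but was called lower by DESeq2 (-3.69, adjusted p = 0.00443) and in sums per plate and line (-4.12, adjusted p = 0.0221). With a level of 0 in the Acta2GFP and C57BL6 cells of cluster 10, the size of the difference is uncertain.

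Cox4i1 had 118.8, 529.8, 340.6 and 260.8 reads per 500000 in cluster 10 and 97.03 to 266.2 in the fibroblast clusters (0.55, adjusted p = 0.550). Its paralog Cox4i2, outside the rule and known from lung and from hypoxic cells, had 48.2, 354.5, 145.9 and 106.1 in cluster 10 and at most 0.226 in any fibroblast line. It was read in 60.8% of the cells against 6.72% and rose by 10.41 on the log2 scale (adjusted p by edgeR = 2.47e-06). In cluster 10 Cox4i2 was therefore counted at a level of the same order as Cox4i1, on a scale not corrected for length. Ndufa4l2, the paralog of the complex IV subunit Ndufa4 and likewise left out by the rule, had 82.7, 539.1, 241.9 and 192.7 against 23.9 to 75.1 and rose by 1.97 (adjusted p = 0.0361). Ndufa4 had 16.2 to 126.5 against 12.7 to 72.04 (0.53, adjusted p = 0.804). The remaining subunits with tissue forms gave 0.81 for Cox6a1, 1.05 for Cox7a2, 0.16 for Cox7a2l and 0.82 for Cox7b, none called, and the nuclear subunit Cox5b 1.18. Cox5a had 22.1, 2.01, 39.3 and 51.2 in cluster 10 and 19.04, 50.8, 21.3 and 34.7 in the fibroblasts of the same lines, higher in 3 of 4, and its fitted value of -0.48 was 0.39 without C57BL6. The muscle forms Cox8b and Cox7a1 were rare: Cox8b had 381 reads in 45 fibroblast cells and 0 in cluster 10, and Cox7a1 58 reads in 11 cells.

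**Figure D4:**
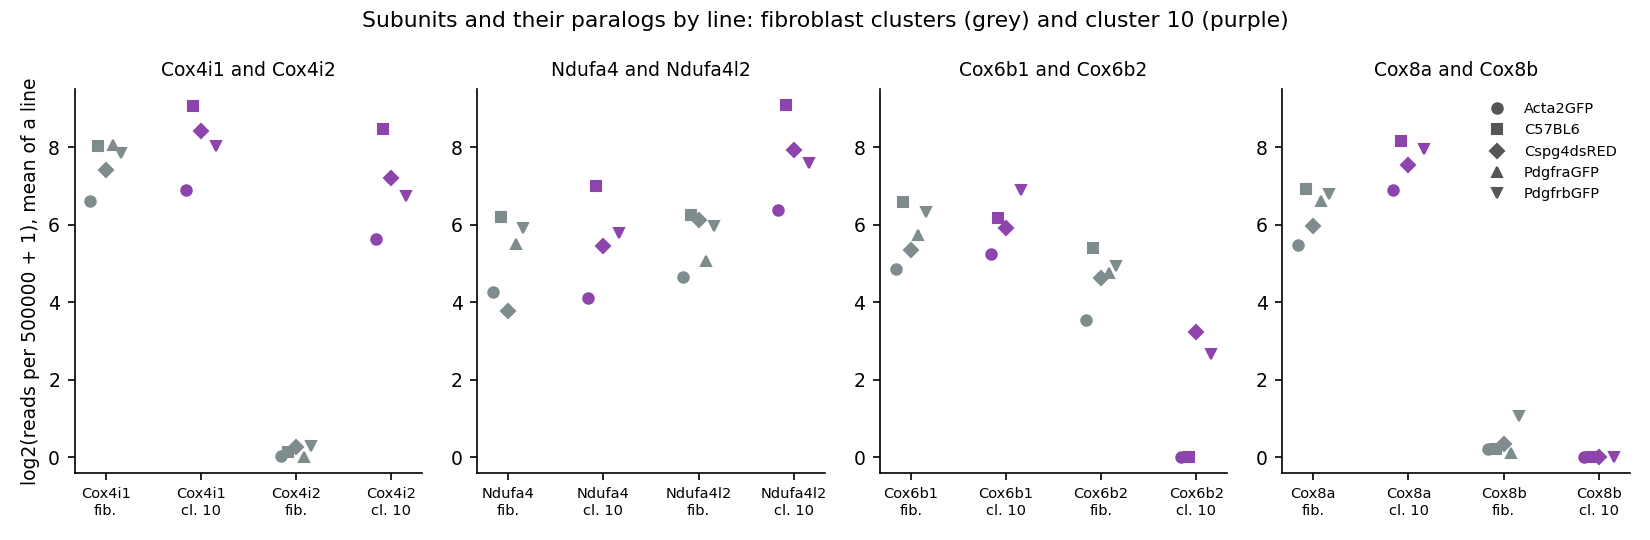
Each point is the mean of a line on the scale log2(reads per 500000 + 1), in the fibroblast clusters (grey) and cluster 10 (purple), for 4 subunits of complex IV paired with a paralog. Cox4i2 and Ndufa4l2 lie higher in cluster 10 in every line, Cox6b2 lies lower in every line, and Cox4i1, Ndufa4 and Cox6b1 overlap between the classes; Cox8a is shown with Cox8b, which stays near 0.

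The lists of genes that feed or build the complexes were tested in the same fit, in which 2.27% of all genes were called higher and 4.11% lower and 22.1% had an unadjusted p under 0.05. In cluster 10 edgeR called 0 of 38 assembly factors outside the rule (median log2 fold change -1.10, 1 at an unadjusted p under 0.05), 0 of 14 electron carriers and feeders (0.50, 1), 0 of 17 genes of the TCA cycle, which supplies NADH and succinate (0.11, 4), 0 of 15 glycolysis genes (0.37, 1) and 0 of 19 genes of mitochondrial transcription and biogenesis (-0.50, 2). Of the genes with an unadjusted p under 0.05, the 4 of the TCA cycle, the 1 of glycolysis and the 2 of transcription and biogenesis were higher. The 1 assembly factor and the 1 carrier or feeder were lower. Of all tested genes, 4.66% had such a p and were higher. Of 7 uncoupling and nucleotide carriers (median 0.73), 1 was called, Ucp2, an inner-membrane carrier, which fell by 4.70 on the log2 scale (adjusted p = 0.0455). DESeq2 was run on the genes kept in this fit, but its calls were not counted by list.

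Cluster 5, which the study named sub-epithelial fibroblasts (76 cells), differed little. The mitochondrial members took 0.853% ± 0.209 (SD, n = 4 lines) of its reads and stood within plate and line at 1.21 of the other fibroblasts (1.12 to 1.43, higher in 5 of 5 groups), and the nuclear subunits at 1.06 (higher in 4 of 5). Per ERCC read the mitochondrial members were at 1.27 (5 of 5) and the nuclear subunits at 1.02. Neither edgeR nor DESeq2 called any of the members tested, and 0 had an unadjusted p under 0.05, which 13.2% of all tested genes had; DESeq2 called 9.77% of its genes. By edgeR, 0.390% of all tested genes were called higher and 0.545% lower, 3.81% were higher in every line and 22.2% lower in every line. Of the mitochondrial members 10 of 12 had a positive log2 fold change, with mt-Nd5 at 0.38 (SE 0.30), mt-Nd1 at 0.21 (SE 0.20) and mt-Cytb at 0.16 (SE 0.20). In 3 of the 4 lines these 3 genes were above the other fibroblasts, and in Cspg4dsRED, with 3 cells, below.

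Cluster 2 (64 cells) was the fibroblast cluster nearest to the mural one in these shares, and also among the shallowest, with a median of 109301 endogenous reads. Its mitochondrial members took 1.13% ± 0.298 (SD, n = 5 lines) and its nuclear subunits 1.36% ± 0.528. Within plate and line the ratio to the other fibroblasts was 1.68 for the mitochondrial members (1.13 to 2.54, higher in 6 of 6 groups), and for the nuclear subunits 1.83 in complex I (higher in 5 of 6), 1.54 in III (6 of 6), 2.05 in IV (5 of 6) and 1.12 in V (5 of 6). PdgfraGFP cells of plate 689s, which held 25 of the 64 cells, lay below 1 for complex I (0.929), complex IV (0.989) and the nuclear subunits together (0.967). Complex II went the other way at 0.772 (higher in 2 of 6), and the ribosomal proteins stood at 1.64 (6 of 6). Per ERCC read, from sums, the mitochondrial members were at 0.897 (higher in 2 of 6), complex II at 0.427 (1 of 6) and all endogenous reads at 0.582 (0 of 6). As means over cells these were 1.08 (4 of 6), 0.497 (1 of 6) and 0.586 (2 of 6, up to 5.58 in Cspg4dsRED cells of plate 352s, with 3 cluster 2 cells).

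By gene, edgeR called 0 members in cluster 2, where 0.0194% of all tested genes were called; 22 members (21.6%) had an unadjusted p under 0.05, near the 23.3% of all tested genes. Of these, 18 (17.6%) were higher, against 1.31% of all genes. DESeq2 called 17 (16.7%), near its 15.95% of all genes, with 13 of them higher, against 97 higher of all 13661 genes. mt-Cytb had 1835 ± 663.05 reads per 500000 (SD, n = 5 lines) in cluster 2 and 1001 ± 124.7 in the fibroblast clusters other than 2 and 5 (log2 fold change 1.10, adjusted p = 0.0642, higher in 5 of 5 lines), and Cox4i1 363.6 ± 87.8 and 200.2 ± 72.7 (1.53, adjusted p = 0.0914). Sdha had 15.9 ± 12.5 against 119.2 ± 30.7 and was lower in 5 of 5 lines (-3.50, adjusted p = 0.0673), while Sdhb, Sdhc and Sdhd gave 0.16 (SE 0.99), 0.81 (SE 0.86) and -0.33 (SE 1.32). Atp5b and Atp5a1 gave -0.82 (SE 0.65) and -0.49 (SE 0.64). The members' median was 0.91 and that of all tested genes -1.52.

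In the other fibroblast clusters edgeR called 0 members. The percent of all tested genes called in either direction was 0.0556% in cluster 1, 0.00608% in cluster 3, 0.746% in cluster 4, 0.0369% in cluster 6, 0.546% in cluster 7, 0.0183% in cluster 8, 0.0530% in cluster 9 and 0.0557% in cluster 11. At an unadjusted p under 0.05 there were 3 members in cluster 3, 1 in cluster 8 and 0 in clusters 1, 4, 6, 7, 9 and 11; of all tested genes, 6.11% had such a p in cluster 3, 8.92% in 8, 9.26% in 1, 3.75% in 4, 9.01% in 6, 10.2% in 7, 1.29% in 9 and 5.35% in 11. DESeq2 called 1 member in cluster 7 and 1 in cluster 8, where it called 5.70% and 5.46% of all its genes. The members' medians ran from -0.32 in cluster 9 to 0.25 in cluster 4. The mitochondrial share was lowest in cluster 9 (0.548%), with 85 of its 91 cells from Cspg4dsRED, where it stood at 0.732 of the other fibroblasts (higher in 0 of 2 groups), and in cluster 1 it was at 0.876 (0 of 6). Cluster 4 (23 cells), which the text of the study does not describe, was compared within 1 group, where the mitochondrial members stood at 1.34, complex I at 1.48, complex II at 0.896, complex III at 1.50, complex IV at 1.13 and complex V at 1.46.

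**Figure D5:**
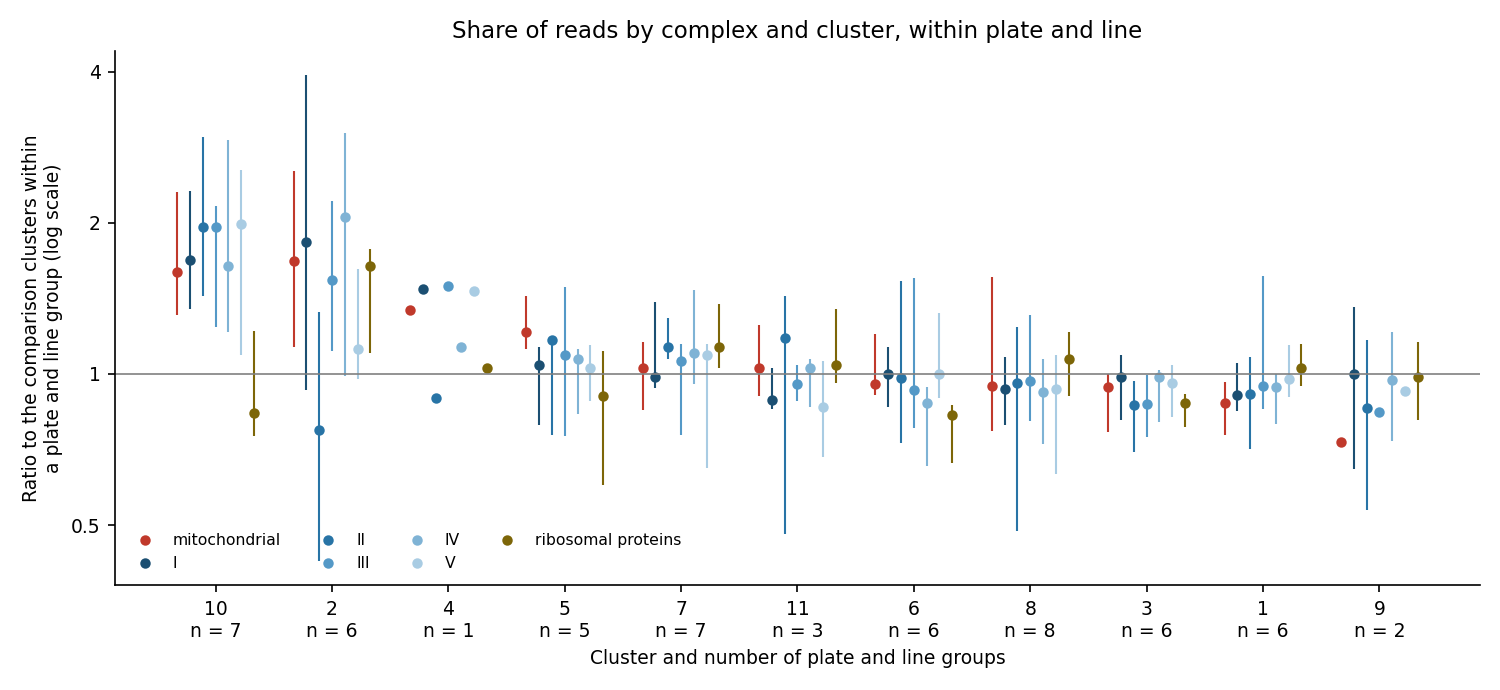
For each cluster, points give the median ratio of the share of reads within a group of plate and line to that of its comparison clusters (log scale), and lines the lowest and highest group, for the mitochondrial members, the nuclear subunits of each complex and the ribosomal proteins. The medians of cluster 10 lie above 1 for every complex and below it for the ribosomal proteins, and those of cluster 2 lie above 1 for all but complex II; clusters 1, 3, 6 and 8 have medians between 0.866 and 0.999 for every group of members.

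Between plates of PdgfrbGFP cells, the share of the nuclear subunits differed more than that of the mitochondrial members. These plates, 074s, 515s and 881s, also differed in depth, with median endogenous reads of 263337, 108547 and 376679. The labels name no animal, so plate, depth and mouse cannot be told apart here. In cluster 10 the spans were 2.31-fold for the nuclear subunits, 1.47-fold for those of complex V and 1.58-fold for the mitochondrial members. In PdgfrbGFP cells of cluster 3, the nuclear subunits took 0.960%, 0.506% and 1.40% of reads on plates 074s, 515s and 881s, a 2.77-fold span, and the mitochondrial members 0.628%, 0.589% and 0.768%, a 1.30-fold span. On plate 515s, which held both lines, Acta2GFP and PdgfrbGFP cells of cluster 3 gave 0.533% and 0.506% for the nuclear subunits. The 2.77-fold span of the nuclear subunits in cluster 3 is larger than the ratio between cluster 10 and the fibroblasts, so ratios were taken within plate and line.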

How the data were processed

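The authors deposited a table of read counts per gene and cell (count, not normalised). According to the study, reads had been trimmed with Trim Galore, aligned to GRCm38 with TopHat2, cleared of doublets with samtools and counted with featureCounts; whether this step removed duplicate reads, the annotation release, the use of strand and the treatment of multiply aligned reads are not given in the sources used here. Cells with a high share of mitochondrial or ERCC reads had been removed, which limits the mitochondrial share from above (highest 5.96% here). Of the 46517 gene rows, 46005 matched GENCODE M21.

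Levels are reads per 500000 endogenous reads, as means per line, averaged over the lines with at least 3 cells. Counts were summed per line and class and tested with edgeR 4.0.16 in R 4.3.3 (TMM, filterByExpr, quasi-likelihood F-test, line as a block), with Benjamini-Hochberg adjustment over all tested genes and a call at 0.05; DESeq2 1.42.0 was an alternative. The edgeR fit was tested on simulated counts, for the cluster 10 comparison only. Lines stand as replicates, on the assumption that they imply separate mice, since the labels name no animal; p-values then measure the spread between lines. The block pairs the classes within a line, because sums of one line share its mice, sort and plates. The plates did not enter both sums in like proportion, and the block does not remove this. Plate 074s gave 4 cluster 10 cells and 361 fibroblast cells of PdgfrbGFP, and plate 881s gave 20 and 242. The same holds for the levels per line. The members and gene lists were chosen with earlier results of these data known. Named genes were the mitochondrial members, a list of core and other main subunits of each complex, members with tissue isoforms, called members, and the highest and lowest nuclear members per kilobase; Cox4i2, Ndufa4l2, Ndufa4 and the genes given for alternatives were named besides these, and Ucp2 as the called gene of its list. 1 gene of that list of subunits is not reported here. Of the promoters, Ndufs7 was chosen for its motif. On either strand, 44 members shared exon bases with another gene; Ndufaf2, Sdhaf1, Ndufb6, Ndufa13 and mt-Atp8 shared at least 20% of theirs. Windows were 50 bases. Figures were drawn with matplotlib 3.10.9.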

Additional observations from a re-analysis of the deposited data

Results flagged for a closer look

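In 7 of the 89 groups of 4 to 10 values examined, 1 value lay apart from the others by Dixon's criterion, which chance gives for about 1 in 20 groups. The 89 groups took in shares by plate and line as well as line values of named members. All 7 were line values of named members, so among those the rate was higher than 7 of 89. Of these, 6 were the C57BL6 line in cluster 10, where 3 cells gave the sum: its log2 difference from the fibroblast clusters was -3.41 for Atp5b, -2.57 for Atp5g3, -5.10 for Ndufs1, -4.44 for Ndufv1, -10.65 for Sdhd and -11.05 for Uqcrfs1. Sdhd and Uqcrfs1 had no read in these 3 cells, so their values depend on the prior count and give no size. The remaining one was mt-Nd3 in cluster 5, at -6.49 in Cspg4dsRED, again with 3 cells. These cells held no read of mt-Nd3, so this value too depends on the prior count and gives no size.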

How the results depend on the processing

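As percents of endogenous reads, the shares of the mitochondrial members and nuclear subunits in cluster 10, cluster 5 and the fibroblast clusters stayed within 1 SD of the lines with medians over cells, with plate and line as the unit, in the depth window and without each line in turn. Per ERCC read, the ratio within plate and line went in cluster 2 from 1.68 to 0.897 for the mitochondrial members and from 1.51 to 0.847 for the nuclear subunits, and in cluster 10 from 1.60 to 1.06 and from 1.83 to 1.23, with groups on both sides of 1. With means over cells in place of sums, an alternative chosen after seeing the data, these were 1.08 and 0.953 in cluster 2 and 1.06 and 1.29 in cluster 10. The number of members called also changed, and the percent of all tested genes called in the same setting stands in brackets. In cluster 10, against 1 over lines (6.38%), it was 2 with RLE scaling (9.30%), 15 with the median gene set at 0 (5.25%), which moves every gene up by the same amount, 3 with DESeq2 (19.8%), 9 with sums per plate and line (17.2%), and 0 with ERCC scaling (8.28%), without a low-count filter (5.26%), in the depth window (6.22%), without the line block (10.95%) and at a log2 fold change of at least 1; leaving out 1 line gave 0 to 5 (5 without C57BL6 (6.80%), 0 without Cspg4dsRED (3.02%) and 0 without PdgfrbGFP (3.49%)). For the log2 fold change of at least 1, the percent of all tested genes is not given. In cluster 5 the number of members called was 3 with the median gene at 0 (1.25%) and 1 with sums per plate and line (3.82%), against 0 (0.935%). In cluster 2, against 0 (0.0194%), it was 28 with the median gene at 0 (2.57%), 5 with ERCC scaling (24.8%), 17 with DESeq2 (15.95%), 6 with sums per plate and line (9.17%), 2 in the depth window (0.0518%) and 2 without the block (2.62%), and 0 to 1 leaving out 1 line (1 without Acta2GFP, 0.0730%). With the median gene at 0 it was 5 in cluster 1 (1.82%), 2 in cluster 4 (1.14%), 4 in cluster 6 (1.15%), 1 in cluster 9 (1.35%) and 4 in cluster 11 (2.24%), and with DESeq2 1 in cluster 7 (5.70%) and 1 in cluster 8 (5.46%). The causes were not tested.

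Log2 fold changes of named members turned sign in cluster 10, also for members as far from 0 as the members' median of 0.60 (mt-Nd1 and Atp5a1, each 0.61). With ERCC scaling these were Atp5a1 (-0.10), Atp5b (-0.04), Atp5g1 (-0.56), Cox4i1 (-0.17), Cox6b1 (-0.54), Cox7a2l (-0.57), Ndufs1 (-0.35), mt-Atp6 (-0.03), mt-Atp8 (-0.05), mt-Co1 (-0.17) and mt-Nd1 (-0.11). With the median gene at 0 they were Atp5c1 (0.74), Cox5a (0.45), Ndufv1 (0.59), Sdhb (0.64), Sdhd (0.70) and Uqcrfs1 (0.37). Without the replicate block, which pairs the classes by line, they were Atp5c1 (0.16), Ndufv1 (0.22), Sdhb (0.01), Sdhd (0.46) and Uqcrfs1 (0.02), and with sums per plate and line Atp5c1 (0.33), Ndufv1 (0.31), Sdhb (0.10) and Sdhd (0.22). DESeq2 and RLE scaling each gave 0.08 for Atp5c1 and 0.01 for Sdhb, and without a low-count filter Atp5g1, Cox6b1 and Cox7a2l gave -0.01, -0.04 and -0.02. In the depth window Cox7a2l gave -0.18. Leaving out 1 line gave -0.53 to 0.33 for Atp5c1, -1.18 to 0.39 for Cox5a, -0.09 to 0.48 for Cox6b1, -0.10 to 0.43 for Cox7a2l, -0.46 to 1.05 for Ndufs1, -0.79 to 0.46 for Ndufv1, -0.61 to 0.02 for Sdhb, -1.09 to 0.70 for Sdhd and -1.17 to 0.34 for Uqcrfs1.

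In cluster 5, mt-Nd2 turned with the median gene at 0 (0.61), without the block (0.19) and with sums per plate and line (0.22). mt-Nd3 gave 0.65, 0.08 and 0.52 in these settings, 0.04 with DESeq2, 0.00 with RLE scaling and 0.34 in the depth window. mt-Nd4l gave -0.02 with ERCC scaling and -0.02 without a low-count filter. Leaving out 1 line gave -0.46 to 0.41 for mt-Nd2, -0.67 to 0.53 for mt-Nd3, -0.03 to 0.45 for mt-Nd4 and -0.32 to 0.40 for mt-Nd4l. Leaving out a line was not run for clusters 4 and 9, with 2 lines each, nor the depth window for clusters 4, 9 and 11 or sums per plate and line for cluster 4. The levels per kilobase of all exons, an alternative chosen after seeing the data, moved the medians of complexes I, III, IV and V by more than the spread between lines. Counting error sets a limit for the lines with 3 cells.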
